A study of Mus musculus with 7 samples.

Results

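Oxidative phosphorylation (OXPHOS) genes encoded in the nucleus were described in bulk RNA sequencing of whole mouse adrenal glands from late gestation to adulthood. Members were all rows of the expression table whose symbols name subunits of complexes I to V by the families Nduf, Sdh, Uqcr, Cyc1, Cox4 to Cox8 and Atp5, leaving out pseudogene symbols. The rule found 83 of 35976 genes, with 37 in complex I, 4 in complex II, 9 in complex III, 16 in complex IV and 17 in complex V. The minimum for testing, a 7-library mean of 10 normalized counts, was met by 81 members and by 16720 genes in all. Cox7b2 and Cox8c fell below it, with at most 1 read in any library. The naming rule differs from membership at its edges. Cox4i1 is outside it, Ndufa4 is placed in complex I by name although its protein is now assigned to complex IV, and Atp5s and Atp5sl carry ATP synthase names without being core subunits.

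Each of the 7 libraries was a pool of C57BL/6J adrenal glands, so there was 1 library per age and sex. The pools held 40 glands from late gestation (E18.5, embryonic day, sex not determined), 16 from males and 22 from females at postnatal day 1 (P1), 6 from each sex at 2 weeks, and 4 from each sex at 12 weeks. No treatment or engineered allele was named, so the comparisons were age and sex alone. There were no replicates of an age and sex. The tests fitted terms for age and sex to the 6 postnatal libraries together, with a shared estimate of the spread. Their p-values measure only the spread between pools that these terms leave, to which the age outside a comparison also adds.

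The respiratory chain passes electrons from NADH through complex I, and from succinate through complex II, to ubiquinone, then through complex III, cytochrome c and complex IV to oxygen. Complexes I, III and IV pump protons across the inner mitochondrial membrane, and complex V, the ATP synthase, uses the gradient to make ATP. Most subunits are encoded in the nucleus and imported, while a few core subunits are made from mitochondrial DNA. In the adrenal cortex, mitochondria also house steps of steroid synthesis, which draw on the same reducing power.

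Library depth ranged from 15184210 gene reads in the 12-week male library to 23551289 in the P1 male library. All 12 adrenocortical and all 10 chromaffin cell markers were above 3 reads in every library. The library labelled P1 female held transcripts of 4 Y-linked genes (Ddx3y, Eif2s3y, Kdm5d and Uty) at 20.7% of their summed level in the P1 male library, while the 2-week and 12-week female libraries were below 0.1% of it. Its Xist level was 8103 normalized counts, against 22.1 in P1 males. The E18.5 library held the Y-linked genes at 69.3% of the P1 male level and Xist at 9782. For the age comparisons that start at P1, counts and medians of members are therefore also given without the library labelled P1 female. For the comparison of the sexes the median is. Markers of neighbouring tissues varied with age. The 6 brown fat markers summed to 50.4 to 123 normalized counts at E18.5 and P1, to 24210 and 27120 at 2 weeks and to 4723 and 3866 at 12 weeks. The 14 skeletal muscle markers summed to 42120 to 159900 before 2 weeks, to 419 and 14000 at 2 weeks, and to 99.3 and 91.6 at 12 weeks. The 8 liver markers went from 262700 to 380300 at E18.5 and P1 to 13120 and 34280 at 2 weeks and 454 and 432 at 12 weeks.

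Members took 0.806% of gene reads at E18.5 (95% Wilson interval 0.803 to 0.810), 0.824% in P1 males (0.821 to 0.828) and 0.701% in P1 females (0.697 to 0.705). At 2 weeks the share was 1.14% for males (1.13 to 1.14) and 1.23% for females (1.22 to 1.23). At 12 weeks it was 0.780% for males (0.7755 to 0.7844) and 0.875% for females (0.8712 to 0.8795). Both 2-week libraries stood above the other 5, whose shares overlapped between ages. The intervals cover counting error only. Complex V took the most reads in every library, from 0.280% in 12-week males to 0.444% in 2-week females, and complex II the least, from 0.0501% in 12-week males to 0.0812% in 2-week males.

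Compared as mean normalized counts per kilobase of principal transcript, the highest members were Atp5b and Atp5a1, the beta subunit that carries the catalytic sites of the ATP synthase and its alpha partner. The level was 10290 per kb for Atp5b and 9585 per kb for Atp5a1. Uqcrb, a small subunit of complex III, followed at 7262 per kb, and Cox6b1, the common Cox6b isoform of complex IV, at 6115 per kb. The lowest tested members were Cox6b2, the testis isoform of that subunit, at 23.6 per kb, Atp5s at 69.4 per kb and Cox6a2, the striated muscle isoform of Cox6a, at 125 per kb. Median levels were 1312 per kb in complex I, 1913 in complex II, 2455 in complex III, 1924 in complex IV and 2044 in the 16 members of complex V with a length.

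The median member was higher at 2 weeks than at P1 and lower again at 12 weeks. On the log2(normalized count + 1) scale, each member was set against its own mean over the 7 libraries. The median member was at -0.22 at E18.5, -0.16 in P1 males and -0.37 in P1 females. In the 2-week libraries it stood at 0.23 (males) and 0.41 (females), and in the 12-week libraries at 0.02 (males) and 0.15 (females). The medians over all 16720 genes stayed between -0.03 and 0.03.

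**Figure D1:**
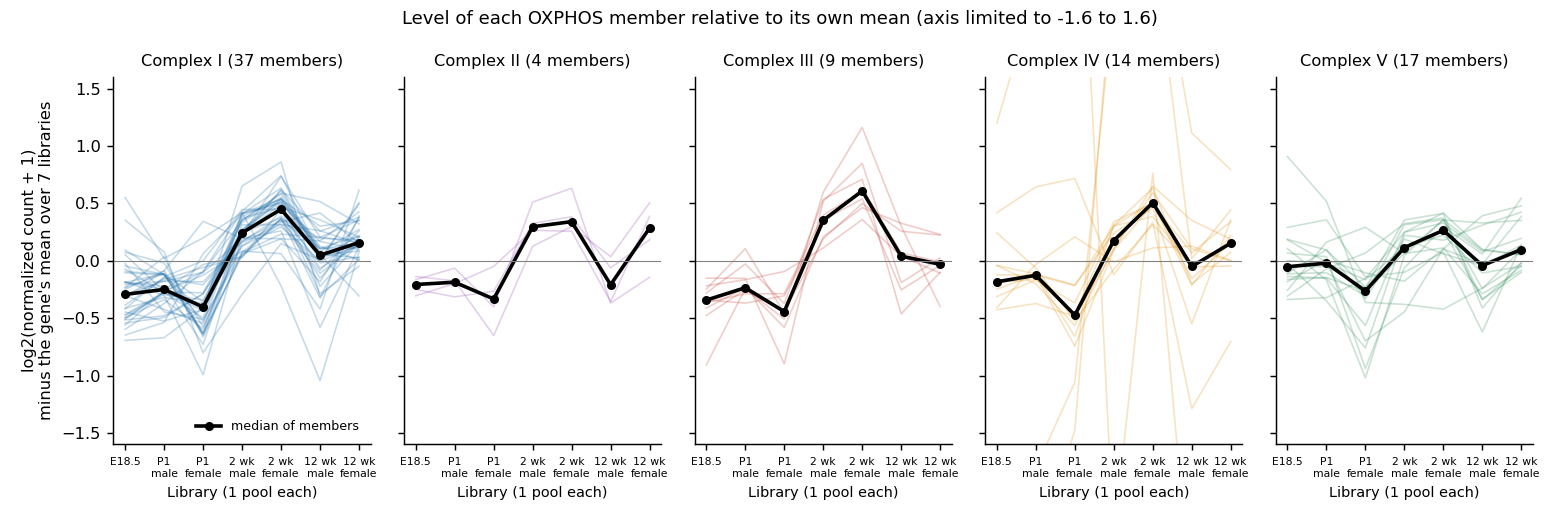
Lines give each member's log2(normalized count + 1) minus its own mean over the 7 libraries, by complex (panels) and library (horizontal axis, 1 pool each), and black points give the median of the members. The medians are highest in the 2-week female library in all 5 complexes, reaching 0.61 in complex III, and lines leaving the axis in complex IV are Cox7a1, Cox8b and Cox6a2.

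The swing was widest in complex III, whose median went from -0.44 in P1 females to 0.61 in 2-week females. It was narrowest in complex V, from -0.26 to 0.27 in the same libraries. The order of libraries differed between complexes at 12 weeks. Complex II stood at -0.21 in males and 0.29 in females, whereas complex III stood at 0.04 in males and -0.03 in females. In 42 of 81 members both 2-week libraries were above the other 5, an ordering found in 8.38% of all genes tested. These were 20 members of complex I, 2 of complex II, 7 of complex III, 7 of complex IV and 6 of complex V. Only Atp5g1, a gene for the ring-forming c subunit of the ATP synthase, had both 2-week libraries below the other 5, against 6.17% of all genes. The 2-week female library was the highest of the 7 for 59 members, against 8.42% of all genes. The P1 female library was the lowest for 37 members, against 17.5% of all genes, the E18.5 library for 26, against 15.5%, and the 12-week male library for 13, against 20%. These bulk values cannot tell a larger share of mitochondria-rich cells from more RNA per cell. The brown fat marker sums above were highest in the same 2 libraries, and their part in the result was not tested.

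From P1 to 2 weeks, 31 of the 81 tested members rose and 1 fell, in limma's moderated test with Benjamini-Hochberg adjustment over 16720 genes at an adjusted p under 0.05. Over all genes 5.89% rose and 10.5% fell. The median log2 difference was 0.63 over the members, a 1.54-fold level, against 0.00 over all genes. Both 2-week libraries were above both P1 libraries for 67 members, against 33.4% of all genes. The rises covered 17 of 37 members of complex I, 2 of 4 of complex II, 7 of 9 of complex III, 4 of 14 of complex IV and 1 of 17 of complex V.

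The number of calls rested on all 4 libraries compared. It was 0 without P1 males, 1 without P1 females (Cox7a1), 2 without 2-week males and 3 without 2-week females, and 49 without either 12-week library. No member passed with no filter on low values, and 4 did with no mean-variance trend. Over all genes 0 and 1672 passed in these settings, against 2737 in the main fit. Calls over all genes also dropped when any of the 4 libraries was left out, and grew without either 12-week library. The median difference stayed above 0 throughout, between 0.39 without P1 females and 0.84 without P1 males. Between the 2 male libraries alone, 71 members were higher at 2 weeks, against 49.6% of all genes, 22 of them by at least 1.5-fold, against 15%, with a median of 0.40. Between the 2 female libraries 74 were higher, against 49.4%, 57 of them by at least 1.5-fold, against 15.4%, with a median of 0.85. For transcripts under 1 kb, from 1 to 2 kb and above, the female medians were 0.15, 0.09 and -0.07 over all genes. Over the members they were 0.88, 0.89 and 0.67. In males the medians by length were -0.07, -0.02 and -0.01 over all genes and 0.40, 0.37 and 0.52 over the members. The part of length was not tested.

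In complex I, 36 of 37 members were higher at 2 weeks, against 50.3% of all genes, and the median log2 difference was 0.68. Ndufv1 encodes the FMN-carrying subunit that takes electrons from NADH. It had 1334 normalized counts at E18.5, 1582 and 1406 in P1 males and females, 2987 and 3453 at 2 weeks, and 1531 and 1918 at 12 weeks. The 2-week pair stood clear of the other 5 libraries, and the rise was 1.11 ± 0.17 (log2 difference ± SE, adjusted p = 0.009344). The neighbouring iron-sulfur subunits of the NADH-oxidising and ubiquinone-binding arm, Ndufs1, Ndufs7, Ndufs8 and Ndufv2, rose by 0.75 to 0.86. Ndufa4 went from 1190 and 735 at P1 to 1708 and 2252 at 2 weeks. Its rise was 1.07 ± 0.26 (adjusted p = 0.03837), with no overlap although the P1 pools differed. Ndufb4, an accessory subunit of the membrane arm, went from 760 and 908 to 1545 and 1822, a rise of 1.01 ± 0.17 (adjusted p = 0.01242). The smallest differences were -0.01 ± 0.39 for Ndufa4l2, a hypoxia-induced relative of Ndufa4, and 0.10 ± 0.20 for Ndufb7, an accessory subunit. Neither passed the test.

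Complex II is succinate dehydrogenase, which also serves the tricarboxylic acid (TCA) cycle. Its membrane anchor genes Sdhd and Sdhc rose, by 0.80 ± 0.18 (adjusted p = 0.02878) and 0.64 ± 0.14 (adjusted p = 0.02841). Sdhd had 1664 normalized counts at E18.5, 1783 and 1413 at P1, 2659 and 2891 at 2 weeks, and 1444 and 1688 at 12 weeks, so that only the 2-week libraries stood apart. Sdhb, the iron-sulfur subunit, differed by 0.63 ± 0.23, and Sdha, the flavin-carrying catalytic subunit, by 0.39 ± 0.21. Neither passed (adjusted p = 0.1197 and 0.2566).

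In complex III all 9 members were higher at 2 weeks and the median was 0.79. Uqcrq, a small subunit near the cytochrome b core, had 326 normalized counts at E18.5, 517 and 430 at P1, 927 and 1372 at 2 weeks, and 755 and 464 at 12 weeks. It rose by 1.26 ± 0.29 (adjusted p = 0.03335), and the 12-week male library lay between the P1 and 2-week values. Cyc1, cytochrome c1, which hands electrons to cytochrome c, went from 1425 and 850 at P1 to 2271 and 2857 at 2 weeks, a rise of 1.21 ± 0.27 (adjusted p = 0.02878). The core subunits Uqcrc1 and Uqcrc2 rose by 0.82 ± 0.20 and 0.79 ± 0.16. Uqcrfs1, the Rieske iron-sulfur protein, differed by 0.62 ± 0.22 and Uqcrh, the hinge subunit, by 0.36 ± 0.15, without passing.

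In complex IV the 2 largest rises and the only fall were tissue isoforms, Cox8b, Cox7a1 and Cox6a2, described below. Of the general subunits, Cox6c rose by 0.80 ± 0.21 (adjusted p = 0.0449) and Cox6b1 by 0.72 ± 0.19 (adjusted p = 0.04596). Without the 3 tissue isoforms, 29 of 78 members rose, none fell and the median was 0.62. At an unadjusted p under 0.05, 57 of the 81 members differed, against 32.4% of all genes.

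Complex V moved least, with a median of 0.35. Its single call was Atp5h, the d subunit of the stalk that holds the enzyme head, which went from 2906 and 3260 at P1 to 4311 and 4843 at 2 weeks and rose by 0.57 ± 0.14 (adjusted p = 0.04207). Larger differences with wider errors, 0.79 ± 0.27 for the membrane subunit gene Atp5l and 0.76 ± 0.26 for Atp5s, did not pass. The alpha and beta subunit genes Atp5a1 and Atp5b differed by 0.54 ± 0.20 and 0.53 ± 0.20. Atp5g1 was lowest, at -0.48 ± 0.26, after 2622 normalized counts at E18.5, 2001 and 1086 at P1, 1074 and 1043 at 2 weeks, and 1184 and 1376 at 12 weeks. Its high values were those of E18.5 and P1 males. Atp5sl, with a difference of -0.14 ± 0.20, was next lowest.

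**Figure D2:**
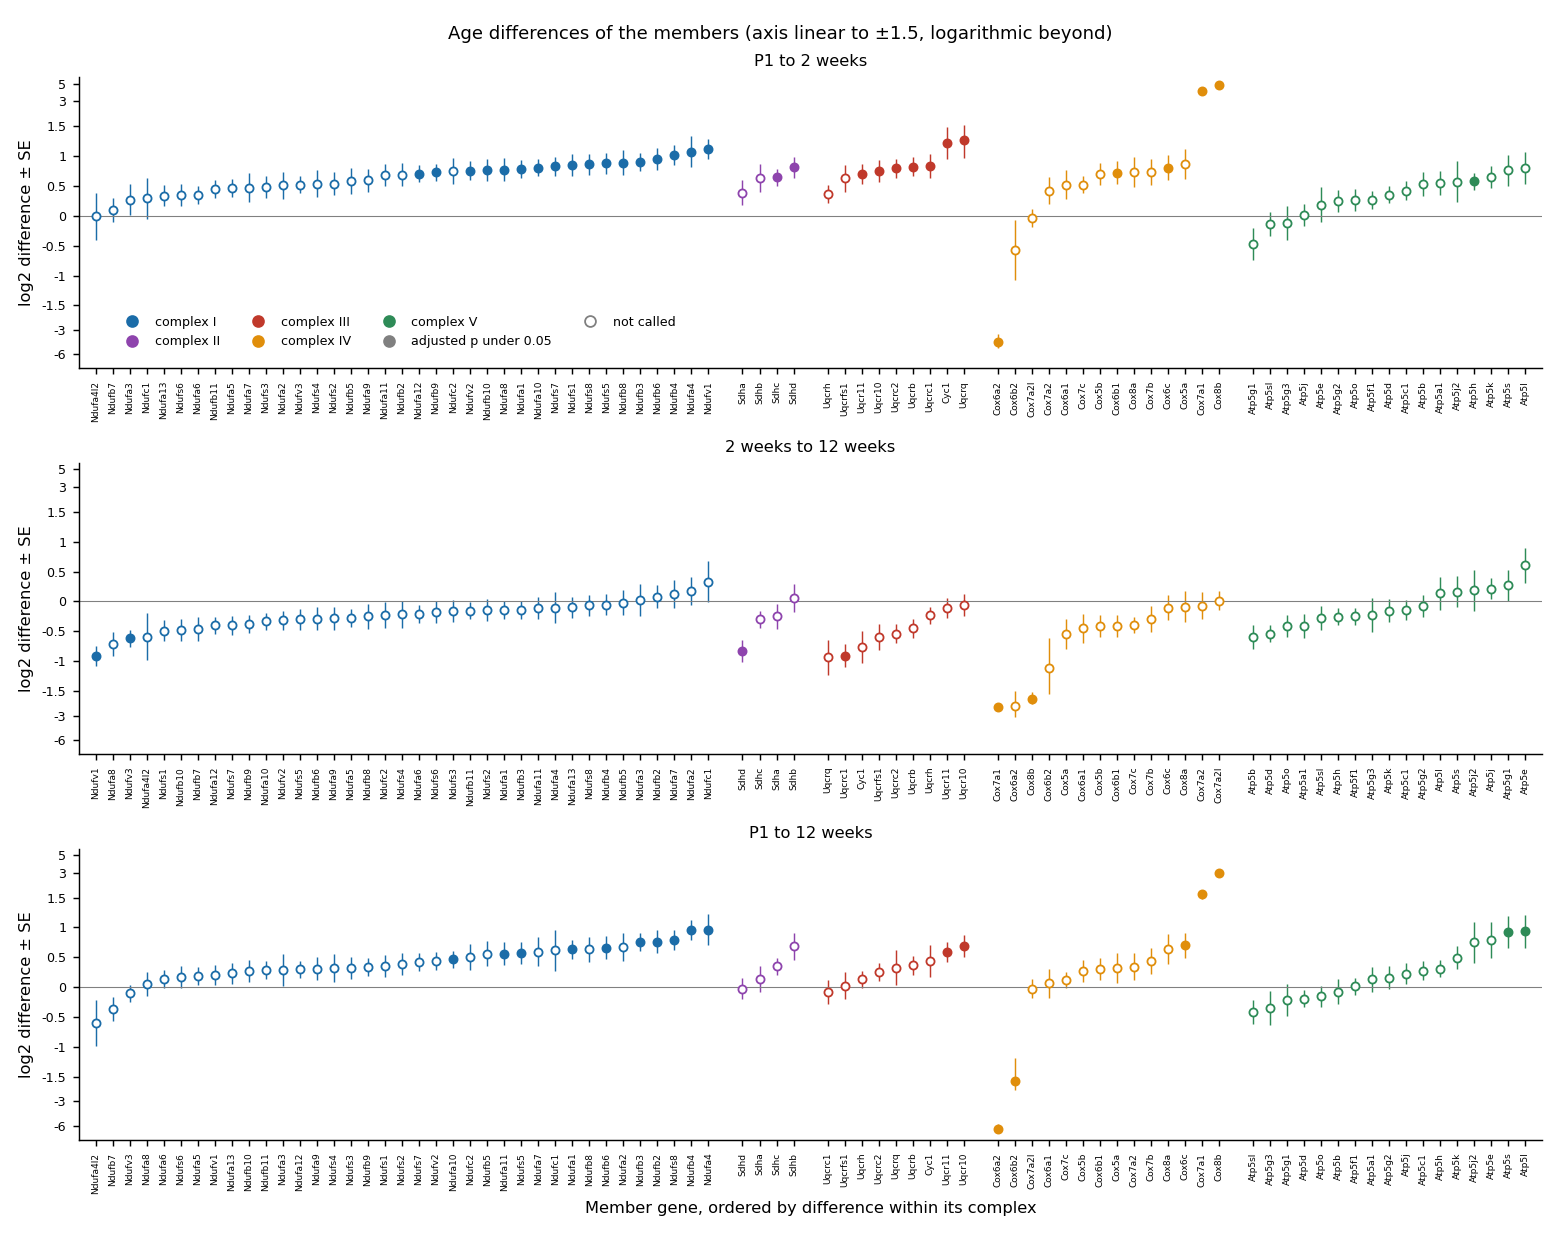
Points give the log2 difference ± SE of each of the 81 tested members, grouped by complex, for P1 to 2 weeks, 2 weeks to 12 weeks and P1 to 12 weeks, with filled points at an adjusted p under 0.05 (axis linear within ±1.5 and logarithmic beyond). In the upper panel 31 members are called higher and 1 lower, in the middle 6 lower, and in the lower panel 17 higher and 2 lower.

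From 2 to 12 weeks, 6 members fell and none rose in limma's test, against 9.89% and 5.4% of all genes, and 15.3% of all genes changed in either direction, so the share of calls was near or below the background. The 6 were Cox7a1, Cox8b, Ndufv1, Ndufv3, Sdhd and Uqcrc1. A negative difference was found in 68 of 81 members, against 52.5% of all genes, the median was -0.25 against -0.03 over all genes, and both 12-week libraries were below both 2-week libraries for 47 members, against 35.3%. No member was called higher by limma, edgeR or DESeq2, and 21 of 81 differed in either direction at an unadjusted p under 0.05 in limma, a share below the 32.5% of all genes. Leaving out 2-week males or 2-week females left 1 call, Cox7a1, and leaving out 12-week females gave 12. With no filter on low values none was called, and none of all genes. Calls over all genes also dropped without either 2-week library and were more without 12-week females. The median moved between -0.20 and -0.35 as libraries were left out.

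Ndufv1 fell by 0.91 ± 0.17 (adjusted p = 0.01759), and its difference from P1 to 12 weeks was 0.20 ± 0.17 (adjusted p = 0.3739). Ndufv3, the third subunit of the flavin-carrying group, went from 2534 and 2536 at 2 weeks to 1523 and 1798, below both and without overlap, and fell by 0.62 ± 0.14 (adjusted p = 0.03411). Sdhd fell by 0.83 ± 0.18 (adjusted p = 0.02765). Uqcrc1 went from 5626 and 6349 at 2 weeks to 2814 and 3620 at 12 weeks and fell by 0.90 ± 0.20 (adjusted p = 0.02902). At P1 it had 3806 in males and 2996 in females, so the 12-week female value lay between these and the 12-week male value below both. Uqcrq, at -0.93 ± 0.29, Cyc1, at -0.77 ± 0.27, Ndufa8, an accessory subunit of complex I, at -0.71 ± 0.19, and Sdhc, at -0.29 ± 0.14, did not pass. In complex V the lowest differences were -0.60 ± 0.20 for Atp5b and -0.54 ± 0.14 for Atp5d, the delta subunit of the rotating stalk. The highest were 0.61 ± 0.30 for Atp5e, the epsilon subunit of that stalk, and 0.27 ± 0.26 for Atp5g1, and none of the 4 passed. Atp5e, Atp5g1 and Atp5s were the only members with both 12-week libraries above both 2-week libraries, against 30.7% of all genes. The highest differences elsewhere were 0.33 ± 0.34 for Ndufc1, 0.17 ± 0.23 for Ndufa2, 0.06 ± 0.23 for Sdhb, 0.01 ± 0.15 for Cox7a2l, -0.07 ± 0.22 for Cox7a2, -0.06 ± 0.18 for Uqcr10 and -0.10 ± 0.17 for Uqcr11, and none passed.

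From P1 to 12 weeks, 17 members rose and 2 fell, against 17.6% and 23.5% of all genes (41.2% in either direction), so the share that rose was near the background and the share that fell was below it. The median difference was 0.32, against -0.03 over all genes, and both 12-week libraries were above both P1 libraries for 46 members, against 34.5%. They were below both P1 libraries for 3, Atp5sl, Cox6a2 and Cox6b2, against 37.8%. The rises were 10 in complex I, 2 in complex III, 3 in complex IV and 2 in complex V. Leaving out P1 females left 4 calls and a median of 0.13, and leaving out either 2-week library left 11. With no filter on low values 6 were called, and 4691 of all genes, against 6881 with the filter. Calls over all genes were fewer too without P1 females or either 2-week library. Between the male libraries alone the median was 0.17, with 51 members higher at 12 weeks against 48.1% of all genes. Between the female libraries it was 0.56, with 71 higher against 48.6%.

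Ndufb4 stayed at 1731 and 1513 normalized counts at 12 weeks, against 760 and 908 at P1, a rise of 0.96 ± 0.17 (adjusted p = 0.005605). Ndufa4 was at 1750 and 1905, a rise of 0.96 ± 0.26 (adjusted p = 0.026). From 2 to 12 weeks Ndufb4 differed by -0.05 ± 0.17 and Ndufa4 by -0.10 ± 0.26. The complex III subunit genes Uqcr10 and Uqcr11 rose by 0.69 ± 0.18 (adjusted p = 0.02542) and 0.59 ± 0.17 (adjusted p = 0.03279). Atp5l had 1251 normalized counts at E18.5, 1035 and 573 at P1, 1200 and 1488 at 2 weeks, and 1461 and 1484 at 12 weeks. It rose by 0.93 ± 0.27 (adjusted p = 0.03458), and the P1 female pool was the low value. Atp5s rose by 0.92 ± 0.26 (adjusted p = 0.03138) from 81.01 and 60.7 to 129 and 139. No gene of complex II passed, with 0.68 ± 0.23 for Sdhb and 0.35 ± 0.14 for Sdhc against 0.14 ± 0.21 for Sdha and -0.02 ± 0.18 for Sdhd. Cox6b2, at 18.8 and 19.9 at P1 and 4.19 and 6.79 at 12 weeks, fell by 1.68 ± 0.49 (adjusted p = 0.03501), on 3 and 6 reads at 12 weeks. Among members that did not pass, Ndufa4l2 was at -0.60 ± 0.39, Ndufb7 at -0.36 ± 0.20, Atp5sl at -0.41 ± 0.20, Atp5g3 at -0.35 ± 0.28, Uqcrc1 at -0.08 ± 0.20 and Uqcrfs1 at 0.03 ± 0.22.

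The members with the largest changes were isoforms of complex IV used in thermogenic and striated muscle tissue. Cox7a1 is the heart, muscle and brown fat form of a subunit whose widespread form is Cox7a2, Cox8b stands in the same relation to Cox8a, and Cox6a2 is the heart and skeletal muscle form beside Cox6a1. Upstream sequence of Cox7a1 and Cox8b, the members that rose most, and of their widespread partners is shown, since the partners differ in content of CG dinucleotides. Each stretch holds the 250 bases before the RefSeq transcription start in GRCm38.p6, 5′ to 3′ on the gene's strand, with every CG in capitals. The Cox7a2 stretch lies at chr9:79759854-79760103 (minus strand), Cox7a1 at chr7:30183921-30184170 (plus), Cox8a at chr19:7217617-7217866 (minus) and Cox8b at chr7:140900447-140900696 (minus).
Cox7a2: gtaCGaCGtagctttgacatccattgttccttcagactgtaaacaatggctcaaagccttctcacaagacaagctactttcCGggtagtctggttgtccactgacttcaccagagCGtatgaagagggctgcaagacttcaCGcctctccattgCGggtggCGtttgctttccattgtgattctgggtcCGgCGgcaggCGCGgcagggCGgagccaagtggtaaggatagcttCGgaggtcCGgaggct
Cox7a1: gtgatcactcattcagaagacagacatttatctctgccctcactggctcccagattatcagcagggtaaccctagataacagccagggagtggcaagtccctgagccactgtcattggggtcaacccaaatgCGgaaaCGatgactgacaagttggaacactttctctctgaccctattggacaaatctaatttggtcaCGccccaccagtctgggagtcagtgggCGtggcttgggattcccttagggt
Cox8a: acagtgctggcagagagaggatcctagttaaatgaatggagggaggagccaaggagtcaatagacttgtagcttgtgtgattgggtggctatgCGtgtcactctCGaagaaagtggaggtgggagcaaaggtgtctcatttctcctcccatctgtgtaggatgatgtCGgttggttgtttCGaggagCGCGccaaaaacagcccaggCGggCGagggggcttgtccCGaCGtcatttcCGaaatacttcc
Cox8b: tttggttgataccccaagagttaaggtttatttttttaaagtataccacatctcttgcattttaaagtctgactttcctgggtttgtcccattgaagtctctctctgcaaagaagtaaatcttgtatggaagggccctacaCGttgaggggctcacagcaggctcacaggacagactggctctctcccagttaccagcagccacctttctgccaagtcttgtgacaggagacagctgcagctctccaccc
The widespread forms held 14 CG dinucleotides (Cox7a2) and 11 (Cox8a), and the tissue forms 4 (Cox7a1) and 1 (Cox8b). In the full windows, which add 50 bases after the start, the counts were 20, 19, 7 and 2. The median was 19 over 66 members and 20 over 12216 tested genes with a window, each gene taken at its window richest in CG. Low counts were not confined to tissue forms, since the window of Cox7b held 5, fewer than the 7 of Cox7a1.

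Cox7a1 had 36.1 normalized counts at E18.5, 67.9 and 115 in P1 males and females, 1181 and 1695 at 2 weeks, and 243 and 327 at 12 weeks. The 3 postnatal ages did not overlap. It rose from P1 to 2 weeks by 3.99 ± 0.19 (15.7-fold by the group means, adjusted p = 0.000609), fell to 12 weeks by 2.32 ± 0.19 (adjusted p = 0.001356), and stayed 1.66 ± 0.19 above P1 (adjusted p = 0.001043). Of the 6 postnatal libraries left out in turn, only P1 males ended the call on the first rise. Cox8b had 24.4 at E18.5, 42.5 and 96.0 at P1, 1587 and 2224 at 2 weeks, and 582 and 466 at 12 weeks, again without overlap between postnatal ages. It rose by 4.85 ± 0.33 (27.5-fold, adjusted p = 0.001594), fell by 1.85 ± 0.33 (adjusted p = 0.01581), and stayed 3.005 ± 0.33 above P1 (adjusted p = 0.001018), and leaving out either P1 library ended the first call. The differences of their widespread partners were smaller in size. Cox7a2 differed from P1 to 2 weeks by 0.42 ± 0.22 and Cox8a by 0.73 ± 0.25, and neither passed.

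Per kilobase of transcript, Cox7a1 made up 4.08% of the sum of Cox7a1 and Cox7a2 at E18.5, 9.001% in P1 males and 18.7% in P1 females. At 2 weeks it was the larger of the pair, at 63.4% in males and 65.5% in females, and at 12 weeks it was 25.9% and 29.1%. Cox8b made up 1.61% of its pair at E18.5, 2.79% and 9.03% at P1, 47.8% and 49.4% at 2 weeks, and 25.5% in 12-week males, while in 12-week females Cox8a held 81.5%. So these minor forms came close to or above the widespread forms at 2 weeks only. The levels moved with brown fat markers. Ucp1, the uncoupling protein that defines brown fat, had 7.56 normalized counts at E18.5, 3.27 and 24.3 at P1, 19370 and 21710 at 2 weeks, and 2705 and 2197 at 12 weeks. The 9 general adipocyte markers summed to 5410 to 8049 before 2 weeks, 33650 and 37530 at 2 weeks and 48560 and 40820 at 12 weeks. All 6 brown fat markers rose from P1 to 2 weeks, and Elovl3 or Otop1 was at 0 in each library before 2 weeks. Whether Cox7a1 and Cox8b came from adrenal cells or from fat in the pools cannot be told apart in bulk RNA, and the part of those markers in the result was not tested.

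**Figure D3:**
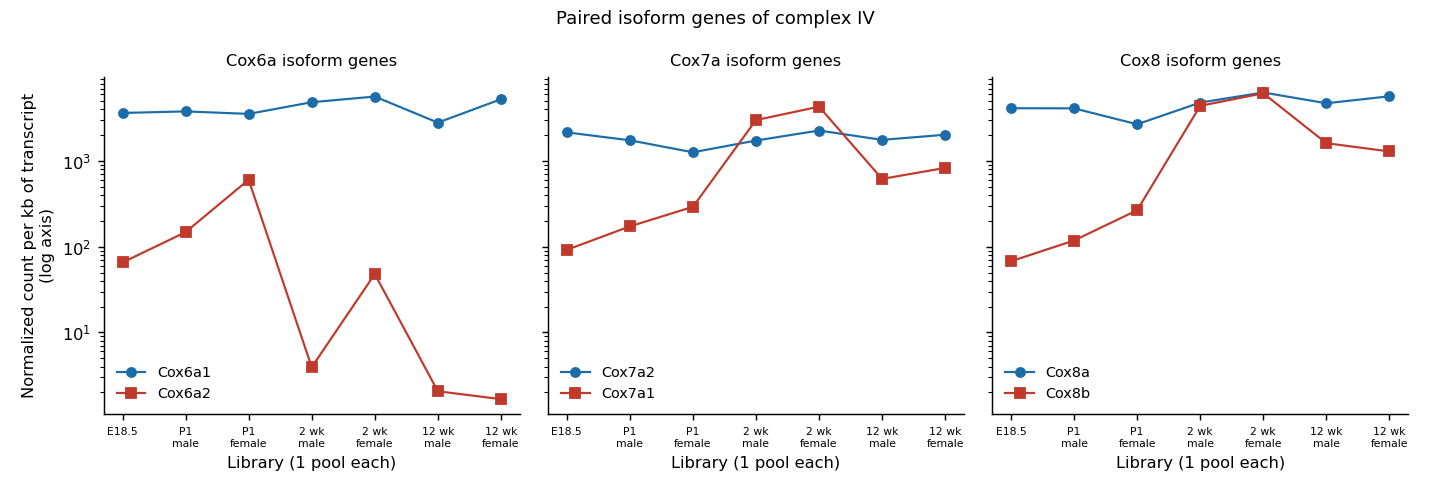
Normalized counts per kb of principal transcript (log axis) by library, 1 pool each, for the isoform genes Cox6a1 and Cox6a2, Cox7a2 and Cox7a1, and Cox8a and Cox8b. Cox7a1 exceeds Cox7a2 in both 2-week libraries only, at 3006 and 4312 per kb against 1735 and 2272.

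Cox6a2 went the other way. It had 44.5 normalized counts at E18.5, 101 and 412 in P1 males and females, 2.67 and 32.6 at 2 weeks, and 1.40 and 1.13 at 12 weeks, the last from 1 read in each library. P1 and 2-week values did not overlap, and within each of these ages the female pool was the higher. It fell by 4.20 ± 0.79 from P1 to 2 weeks (adjusted p = 0.01756, a call lost without either P1 library or 2-week males) and fell by 6.50 ± 0.79 from P1 to 12 weeks (adjusted p = 0.001469), sizes that depend on the added 1. The ratio of P1 over 12-week counts was 186, with an exact interval of 51.3 to 1543 for counting error. The second step, at -2.30 ± 0.79, did not pass (adjusted p = 0.09992). Skeletal muscle markers, such as the sarcomeric actin gene Acta1 at 18890 and 34070 at P1, 48.9 and 2333 at 2 weeks and 11.2 and 11.3 at 12 weeks, were high and low in the same libraries. At 12 weeks 8 of 14 muscle markers in males and 7 in females were at or under 3 reads, with Pvalb at 0 in both and Myh4 at 0 in males. Their part in the fall of Cox6a2 was not tested. Cox6a1 held at least 85.4% of its pair, in P1 females, and over 99% in each library from 2 weeks on.

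**Figure D4:**
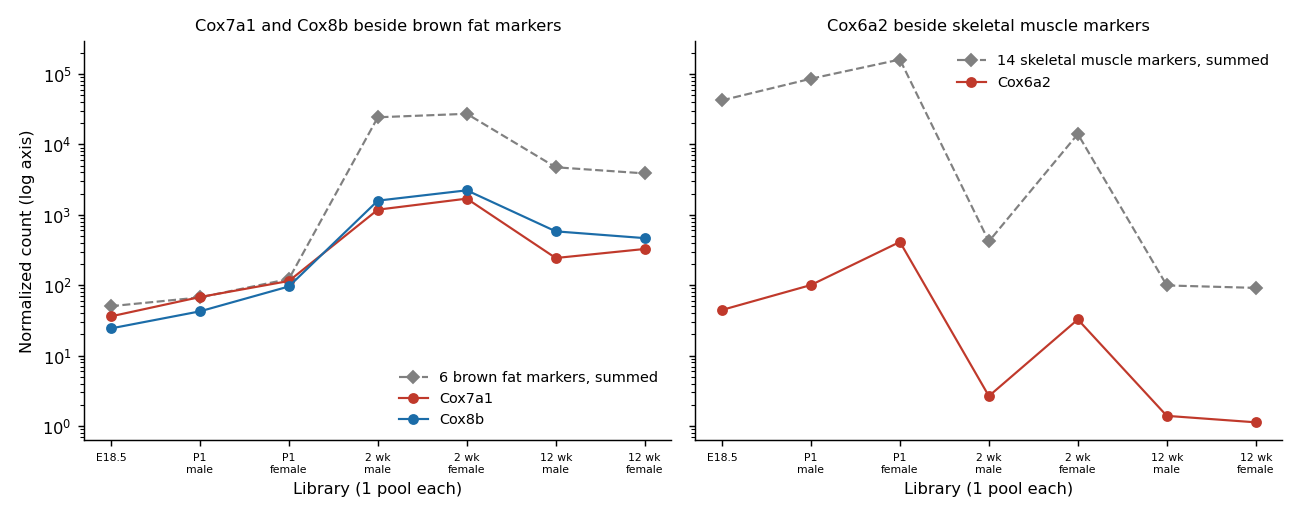
Normalized counts (log axis) by library, 1 pool each, of Cox7a1 and Cox8b beside the sum of 6 brown fat markers (left) and of Cox6a2 beside the sum of 14 skeletal muscle markers (right). The brown fat sum is 24210 and 27120 at 2 weeks and the muscle sum 159900 in P1 females, the libraries where the isoforms in each panel are highest.

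Among the c subunit genes of the ATP synthase, which encode the same mature protein, Atp5g1 went from 22.05% of the per-kb sum at E18.5 to 10.8% and 10.4% at 2 weeks, while Atp5g2 went from 33.0% to 48.3% and 43.8%. None of the 3 passed in any age comparison. Ndufa4l2 made up 15.5% of its pair with Ndufa4 at E18.5, 12.1% and 20.1% in P1 males and females, 11.2% and 5.79% at 2 weeks, and 4.26% and 8.18% at 12 weeks. Cox6b2 stayed under 1% of its pair with Cox6b1. Cox7a2l, a relative of Cox7a2, differed by -0.04 ± 0.15, 0.01 ± 0.15 and -0.02 ± 0.15 in the 3 age comparisons. The rule's remaining pair, Cox7b and Cox7b2, rested on Cox7b, at 0.73 ± 0.22 from P1 to 2 weeks (adjusted p = 0.06644).

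Across birth the members did not move as a group. The E18.5 library has no second pool, so no test was made and a 1.5-fold line is used. It held both Y-linked transcripts and Xist, as given above, so sex content was not matched in either comparison with P1. In P1 males 4 members were at least 1.5-fold above E18.5 and none as far below, against 12% and 9.91% of all genes, with a median of 0.05, and 50 were higher by any amount, against 52.7%. The 4 were Cox6a2 (1.16), Cox7a1 (0.89), Cox8b (0.78) and Uqcrq (0.66, log2 differences). In the library labelled P1 female 6 were above and 13 below, against 17.1% and 13.2% of all genes (30.3% either way). The median was -0.10, and 35 were higher by any amount, against 53.7%. The highest were Cox6a2 (3.18) and Cox8b (1.94) and the lowest Atp5g1 (-1.27) and Ndufc1 (-1.16), the latter a small accessory subunit of complex I. Of the 13 lower members 5 belonged to complex V. In P1 males the lowest values were -0.53 for Ndufa4l2 and -0.42 for Ndufb2, an accessory subunit. Both P1 libraries were above E18.5 for 32 members and below it for 28, against 40.5% and 34.1% of all genes. At P1 the 2 pools also differed in tissue content, with a skeletal muscle sum of 85410 in males and 159900 in females and an adrenocortical marker sum of 445500 and 268400. The 8 kidney markers summed to 10300 in P1 males and 2833 in P1 females, each of them at least 1.5-fold higher in males, and the 8 exocrine pancreas markers to 4406 and 88.3. The part of these in the difference was not tested.

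No member was called between the sexes over the 3 postnatal ages by limma, edgeR or DESeq2. Of all 16720 genes limma called 0 higher in males, so it missed even the Y-linked gene Ddx3y. At 2 weeks Ddx3y stood at 3793 in the male library against 1.76 in the female one, and at 12 weeks at 4285 against 1.13. The limma test therefore cannot decide whether members differ by sex. Over all genes edgeR called 0 and DESeq2 9, so these tests had few calls to give as well. The lack of member calls in any of them does not show equal levels. At an unadjusted p under 0.05, 5 of 81 members and 521 of all 16720 genes differed in limma (3.12% of all genes), with 5 members in edgeR and 3 in DESeq2, and the adjusted test called 0.00598% of all genes. The 5 were Cox6a2 (-1.68 ± 0.65), Cox7a1 (-0.56 ± 0.15), Ndufs6 (-0.42 ± 0.15), Ndufb7 (-0.40 ± 0.16) and Ndufa1 (-0.31 ± 0.13), all lower in males (log2 difference, male minus female), and were chosen after their values were seen. Leaving out either 12-week library gave 1 call, Cox6a2 lower in males. More genes in all were also called in those settings than in the main fit. The median over the members was -0.06, and 0.01 with libraries scaled to equal totals. It was -0.19 without either P1 library, the one labelled P1 female included, 0.01 without either 2-week library and -0.02 without either 12-week library, so neither its size nor its sign held across these choices.

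Single ages differed in direction, each from 1 library per sex and without a test. The library labelled P1 female also held Y-linked reads, and the P1 pools differed in muscle, adrenocortical, kidney and pancreas markers, as given above. At P1 the median was 0.14, male over female, with 9 members at least 1.5-fold higher and 4 lower in males, against 9.6% and 9.58% of all genes, and 54 higher by any amount, against 47.6%. The highest were Atp5j2, a membrane subunit of complex V (0.97), and Atp5g1 (0.88), and the lowest Cox6a2 (-2.02) and Cox8b (-1.16). At 2 weeks the median was -0.21, and 7 of 81 members were higher in males, against 48.9% of all genes. The 1.5-fold line was passed by Ndufa4l2 (0.64) and Cox6a2 (-3.20) only, against 2.76% higher, 7.31% lower and 10.1% either way of all genes. Uqcrq (-0.57) and Atp5g2 (0.13) were next at either end. Difference and transcript length moved together there. Over all genes the 2-week median was -0.16 for transcripts under 1 kb, -0.09 from 1 to 2 kb and 0.02 above, and over the members -0.25, -0.17 and -0.06, and the part of length was not tested. At P1 the medians by length were 0.09, 0.02 and -0.06 over all genes and 0.11, 0.24 and 0.13 over the members, again not tested. The muscle marker sum was 419 in 2-week males and 14000 in females, the liver sum 13120 and 34280, and the sum of 7 erythroid markers 9000 and 26090. The part of these in the difference was not tested.

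At 12 weeks the median was -0.19, with 1 member higher and 7 lower in males by 1.5-fold, against 12.8% and 9.63% of all genes, and 23 higher by any amount, against 52.2%. The highest were Uqcrq (0.70) and Ndufa8 (0.36), and the lowest Ndufa4l2 (-1.12) and Ndufa3 (-1.04), an accessory subunit of complex I. Male below female at both 2 and 12 weeks held for 51 members, against 23.6% of all genes. All 4 genes of complex II were lower in 12-week males, with -0.74 for Sdha, whereas 6 of 9 in complex III were higher. The adrenocortical sum was 885100 in 12-week males and 1157000 in females and the erythroid sum 13190 and 5477, and their part was not tested.

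**Figure D5:**
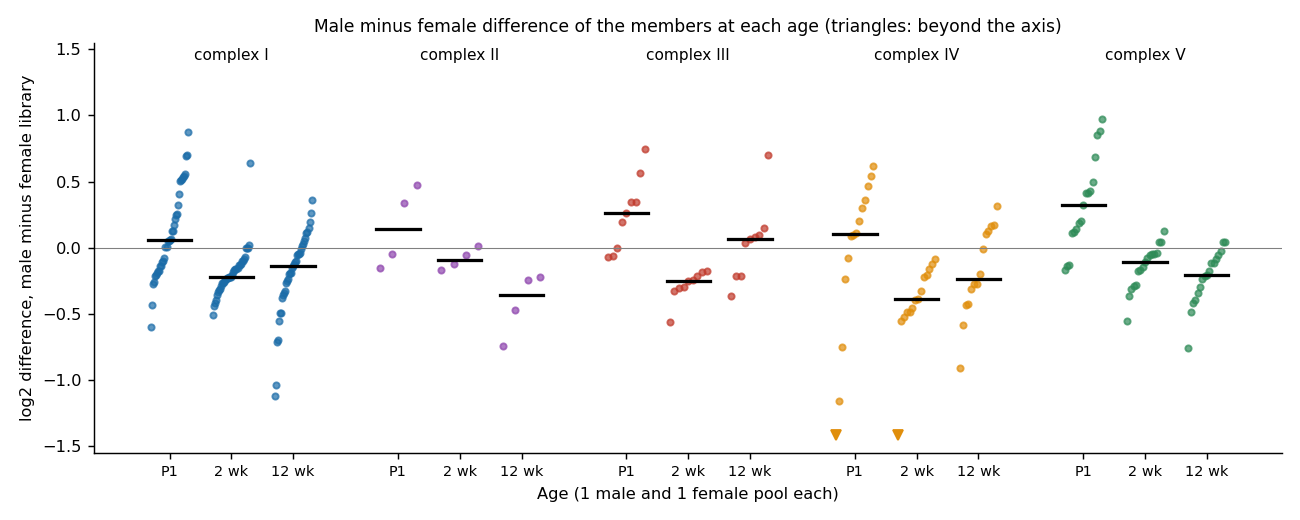
Points give the log2 difference, male minus female library, of each of the 81 tested members by complex at P1, 2 weeks and 12 weeks, and bars give the medians. The bars are above 0 in all 5 complexes at P1 and below 0 in all 5 at 2 weeks, and Cox6a2 lies beyond the axis at P1 and 2 weeks, at -2.02 and -3.20.

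Genes that work with the members were counted from lists of textbook function. For all the lists, the shares of all genes to read the counts against are 5.89% rising and 10.5% falling from P1 to 2 weeks, 5.4% and 9.89% from 2 to 12 weeks, and 17.6% and 23.5% from P1 to 12 weeks. Of 13 TCA cycle genes outside the rule, 11 rose from P1 to 2 weeks (median 0.96) and 9 fell to 12 weeks (median -0.86). Their summed level was 38850 to 43100 normalized counts before 2 weeks, 90520 and 101100 at 2 weeks, and 45410 and 54890 at 12 weeks, so the 2-week pair stood apart as it did for the members. From P1 to 12 weeks 1 rose, Sucla2 (0.58), a succinyl-CoA ligase subunit, and the lowest was malate dehydrogenase, Mdh2, at -0.38. Of 16 glycolysis genes 2 rose and 1 fell to 2 weeks, with a median of -0.04, and from P1 to 12 weeks 1 rose and 3 fell. Over the latter span Hk2, a hexokinase, rose by 1.33 and Ldha, lactate dehydrogenase A, fell by 0.95.

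Subunits outside the naming rule included Cox4i1, the main Cox4 form, at 4257 and 3441 normalized counts at P1 and 5116 and 5744 at 2 weeks (0.50, adjusted p = 0.099). Of that list of 5, Ndufab1, an acyl carrier protein of complex I, rose by 1.07 and Cycs, cytochrome c, by 1.14. Cycs fell by 1.03 to 12 weeks, and Cox4i2, a lung and hypoxia form, was lowest from P1 to 12 weeks at -0.47. Among assembly factors, 3 of 13 for complex I rose to 2 weeks and 5 by 12 weeks, from 0.99 for Ndufaf5 down to 0.29 for Ndufaf6, which did not pass. For complexes II and III none of 10 rose to 2 weeks and 4 rose by 12 weeks, led by Sdhaf4 (1.45), while Uqcc3 was lowest (-0.08). For complex IV none of 17 rose to 2 weeks, against 5.89% of all genes, and 3 did by 12 weeks, a share equal to the 17.6% of all genes. Cox16 was highest (1.35, adjusted p = 0.0674) and Cox10 lowest (-0.30). For complex V 1 of 4 rose to 2 weeks, Atpaf2, which assists assembly of the enzyme head, and by 12 weeks 2 rose, with Tmem70 highest (0.91), and 1 fell, the inhibitor gene Atpif1 (-0.61).

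The 13 protein genes of mitochondrial DNA included none that fell from 2 to 12 weeks. From P1 to 2 weeks 1 rose, ND6, with a median of 0.14, and from 2 to 12 weeks ND2 and ND3 rose and none fell, with a median of 0.85, against 5.4% and 9.89% of all genes. Their share of gene reads was 5.20% to 6.16% at E18.5 and P1, 5.50% and 6.49% at 2 weeks, and 7.93% and 10.03% at 12 weeks. From P1 to 12 weeks 6 of 13 rose, against 17.6% of all genes, with ATP8 highest (1.83) and ND5 lowest (0.18). These genes have near-identical nuclear copies, so their counts are uncertain. Among 12 regulators of mitochondrial content, Ppargc1b and Esrra, a coactivator and a nuclear receptor that drive OXPHOS genes, rose to 2 weeks, by 1.46 (adjusted p = 0.006231) and 0.80 (adjusted p = 0.04058). Ppargc1b then fell by 2.33 to 12 weeks (adjusted p = 0.001368), to 162 and 192 normalized counts, below the 271 and 385 of P1. Ppargc1a, the related coactivator, had 489 and 374 normalized counts at P1, 564 and 579 at 2 weeks and 102 and 154 at 12 weeks, and fell by 1.76 from P1 to 12 weeks. In all, 2 of the 12 rose to 2 weeks and none fell, 3 fell from 2 to 12 weeks and none rose, and from P1 to 12 weeks 4 fell and 1 rose. The single rise in that span was Tfb2m, a mitochondrial transcription factor, at 0.60. Nrf1 and Gabpa, which bind many OXPHOS promoters, differed by 0.01 and 0.01 from P1 to 2 weeks, and Gabpa fell by 0.58 from P1 to 12 weeks (adjusted p = 0.02319).

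Promoter windows of 300 bases were matched for 66 of the 83 members and searched on both strands for short strings of factors with known OXPHOS targets. The string GCGCATGCG, the core of the NRF1 site, was in 8 members (12.1%), against 3.54% of 12216 tested genes and 1.95% of 27025 genes with a window. AAGATGGCG, a YY1 core, was in 7 (10.6%), against 2.98% and 1.64%. CCGGAAG, an ETS core that GABPA can bind, was in 16 (24.2%), against 17.05% and 9.93%, and AAGGTCA, the short site of estrogen-related receptors, in 8 (12.1%), against 4.26% and 5.38%. The last 3 letters of the ETS string are the first 3 of the YY1 string, so a stretch can hold both. Any of the 4 was in 30 of the 66 members (45.5%), against 25.4% of tested genes. The full windows of Cox7a2, Cox7a1 and Cox8b held none of these strings, and that of Cox8a held the ETS string at 2 places, 246 and 283 bases from the window's 5′ end. By complex, the YY1 string was in 5 members of complex I and 2 of complex V. These counts describe letters in the windows and say nothing of binding.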

How the data were processed

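Whole adrenal glands of C57BL/6J mice were pooled by age and sex into 7 libraries and sequenced as bulk RNA. The deposited table holds, per the labels and its values, normalized read counts per gene (a signal that the authors obtained by dividing counts by a size factor of each library). The submitters' processing notes name CASAVA 1.8.2, HISAT2 2.1.0, HTSeq 0.9.1, DESeq2 2.11.40.6 and the build mm10, without roles. Whole reads were recovered for 100% of values (largest deviation 0.000114 reads).

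Values were analysed as log2(normalized count + 1) for the 16720 genes with a mean of at least 10. Age and sex were tested over the 6 postnatal libraries with limma 3.58.1 (R 4.3.3; moderated test with a mean-variance trend, terms for age and sex, two-sided p, Benjamini-Hochberg over all genes, threshold 0.05). Comparisons of 1 library with 1 library used a 1.5-fold line and no test. edgeR 4.0.16 (quasi-likelihood) and DESeq2 1.42.0 on the recovered reads were alternatives, and edgeR called 29 members from P1 to 2 weeks, 7 from 2 to 12 weeks and 18 from P1 to 12 weeks. Over all genes edgeR called 2795, 2396 and 6754 in that order. Other alternatives were the pseudocount, the filter, the scaling, the trend, the sex term, the fold line and leaving out each library. The fitting code was tested on simulated data. Python 3.11.15, pandas 2.3.3 and SciPy 1.17.1 were used for descriptions.

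Transcript lengths came from GENCODE vM21 (GRCm38, the build named mm10) and upstream sequences from RefSeq GRCm38.p6. Genes were named by rule: the 2 highest and 2 lowest members of each complex in each tested age comparison, the 2 highest and 2 lowest in each comparison of single libraries, isoform sets, the Sdh genes, members under the minimum, and from each pathway list the highest and lowest from P1 to 12 weeks. Other named genes were chosen after their values were seen. Members and lists were chosen with earlier results of these data known. Depth was 15184210 to 23551289 reads per library. With 1 pool per age and sex, p-values measure only the spread between pools left after the terms for age and sex.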

Additional observations from a re-analysis of the deposited data

Results flagged for a closer look

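Ndufa4l2, the hypoxia-induced relative of Ndufa4, differed between the sexes in opposite directions at 2 ages. At 2 weeks its level was 380 normalized counts for the male and 243 for the female library, a log2 difference (male minus female) of 0.64. At 12 weeks the male library had 137 and the female library 299, a difference of -1.12. Each value compares 1 library with 1 library, and the difference between the ages was not tested.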

How the results depend on the processing

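Replicates could not be paired, because each age and sex holds 1 library. The sex term of the tests matched male and female pools across ages. Without that term 41 members were called from P1 to 2 weeks, against 32 with it. Over all genes 3107 were called without it and 2737 with it. Of 1425 values of named members in the tested age comparisons under other settings, 1273 kept their direction and their side of the threshold, 107 lost the call, 45 gained it and none reversed. In comparisons of single libraries all 140 such values stayed within the criterion. Counts of members called moved more. With no filter on low values the counts were 0 from P1 to 2 weeks, 0 from 2 to 12 weeks and 6 from P1 to 12 weeks, and without the mean-variance trend 4, 2 and 8. With equal totals they were 16 from 2 to 12 weeks and 11 from P1 to 12 weeks, with the upper quartile 30 from P1 to 12 weeks, and with DESeq2 12 from 2 to 12 weeks. Leaving out each library gave 0 to 49 from P1 to 2 weeks, 1 to 12 from 2 to 12 weeks, 4 to 20 from P1 to 12 weeks and 0 to 1 between the sexes. Calls over all genes moved too, also as libraries were left out. In the main fit they were 2737 from P1 to 2 weeks, 2557 from 2 to 12 weeks and 6881 from P1 to 12 weeks. With no filter they were 0, 0 and 4691, and without the trend 1672, 1661 and 5723. Equal totals gave 3161 from 2 to 12 weeks and 6910 from P1 to 12 weeks. The upper quartile gave 7204 from P1 to 12 weeks and DESeq2 2917 from 2 to 12 weeks. The median difference of the members from 2 to 12 weeks was -0.26 with no filter, -0.42 with equal totals, -0.26 with TMM factors, -0.16 with the upper quartile, -0.24 in edgeR and -0.23 in DESeq2, and -0.35 to -0.20 as libraries were left out. Equal totals moved the median of all genes there by -0.20. With a 2-fold line 1 member differed from E18.5 to P1 males, 7 from E18.5 to P1 females, and 2, 1 and 2 between the sexes at P1, 2 weeks and 12 weeks. Between the sexes equal totals gave 20 members at P1 and no filter gave 4 at 2 weeks. Without the 10 most abundant genes, members took 0.901%, 0.921%, 0.807%, 1.28%, 1.43%, 0.970% and 1.08% of reads in the order E18.5, P1 male, P1 female, 2-week male, 2-week female, 12-week male and 12-week female. Without mitochondrially encoded genes the shares were 0.852%, 0.879%, 0.740%, 1.21%, 1.31%, 0.847% and 0.973%. The cause of these shifts was not tested. Depth limits Cox6a2 at 12 weeks, with 1 read in each library.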
